A study of Mus musculus with 4 samples.

Results

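Neurotrophins are secreted growth factors of neurons, and the genes described here are a group of 6 made up of neurotrophins, their receptors and a secreted target: the ligands Bdnf and Ntf3, the receptor tyrosine kinases Ntrk2 (TrkB) and Ntrk3 (TrkC), the low-affinity receptor Ngfr (p75) and Vgf. The members were given by name, and each was taken with every probe set that the array's annotation assigns to that gene symbol alone. This gave 22 probe sets for 5 of the 6 genes, out of 34958 single-symbol probe sets for 18194 genes. Ntf3 was not analysed here. RNA came from the whole hippocampus of the left side of wild-type mice, with 1 array for each of 4 samples, numbered 11, 13, 15 and 17. The samples are labelled as biological replicates and form a single group with no treatment, so no contrast between conditions exists, and strain, age and sex are not given in the labels. The questions were which members were detected and how much their levels varied between the samples.

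Brain-derived neurotrophic factor, the product of Bdnf, is released at synapses and signals through the kinase encoded by Ntrk2, while neurotrophin-3 prefers the kinase encoded by Ntrk3. Both kinases pass the signal to the Ras and MAP kinase, phosphoinositide 3-kinase and phospholipase C gamma pathways, and both genes also yield shorter receptors without a kinase domain. The p75 receptor binds all neurotrophins, has a high affinity for their uncleaved precursors when it acts with sortilin, and is prominent on cholinergic neurons of the basal forebrain that project to the hippocampus. Vgf encodes a granin-like secreted protein that neurotrophins and neuronal activity induce in cultured neurons of rat, and that is cut into several peptides. Transcription of Bdnf starts at several alternative promoters, some of which respond to calcium entry through CREB and related factors.

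One start region of Bdnf is shown because this gene is set beside genes that answer to neuronal activity in the values that follow. RefSeq promoter windows of build GRCm38.p6 were at hand for 7 starts of Bdnf and for 4 starts of Ntf3, Ngfr and Ntrk2 together, each reaching from 250 bases before a start to 50 bases after it. The palindromic CRE, searched as TGACGTCA, was in 0 of the 7 Bdnf windows and in 1.79% of all 32851 windows of the same length. The related element TCACGTCA, searched on both strands, was in 1 of the 7 Bdnf windows, in 0 of the 4 windows of the other members and in 0.441% of all windows. In the stretch at chr2:109692338-109692435, on the plus strand and ending at the base before the start, the capitals mark that element, which begins 38 bases before the start:
Bdnf: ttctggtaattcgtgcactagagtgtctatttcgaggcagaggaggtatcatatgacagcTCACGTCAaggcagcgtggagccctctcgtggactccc
A match describes the letters of a window and is no evidence of binding, and the array does not tell apart transcripts from the different starts.

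Levels are log2 intensities as deposited by the authors, processed with RMA, a method that corrects the background, normalises the arrays to each other and summarises the probes of a set. Intensity depends on the affinity of the probes, so levels of different probe sets are not ranked against each other. As a limit for detection, a background of 7.03 was taken, set at the 95th percentile (interpolated) over 43 genes typical of testis, liver, skin, muscle and other tissues, ordered by mean level. The 3 of these genes above the limit were the skin genes Krt10 (7.44) and Lor (7.10) and the gut enzyme Lct (7.84). A level under it does not show that a transcript was absent. Of the 5 measured members, 4 were above background with the probe set of the highest mean, compared with 36.5% of all genes, and Ngfr was below it. Of the 22 probe sets, 11 were above background, compared with 26.5% of all single-symbol probe sets. The 4 columns had medians between 4.67 and 4.71, and having 4 arrays bounds the precision throughout. All 8 neuron markers, 9 of 11 markers of hippocampal fields and all 8 astrocyte markers were above background. The field markers below it were Grik4 (6.40) and Prox1 (5.76). These lists were chosen with earlier results of these data known, so the counts are no independent check of the tissue. Neurons and astrocytes both lie in this tissue, and in bulk RNA fewer cells of a type and less RNA per cell cannot be told apart.

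**Figure D1:**
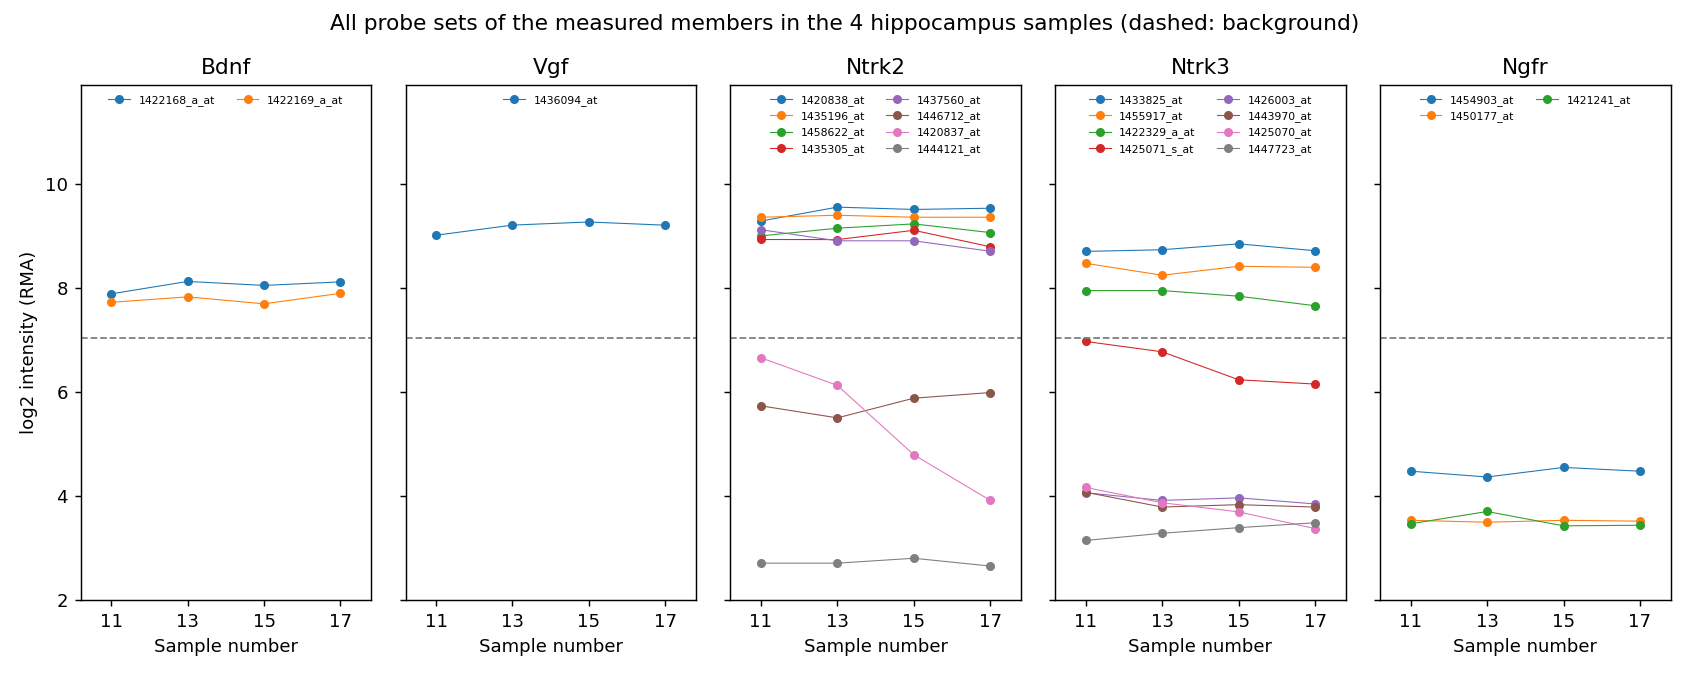
Log2 intensity of every probe set of Bdnf, Vgf, Ntrk2, Ntrk3 and Ngfr (vertical axis) in samples 11, 13, 15 and 17 (horizontal axis), 1 point per array; thin lines join the points of a probe set and imply no order of the samples, and the dashed line is the background of 7.03. All Bdnf and Vgf sets and 5 Ntrk2 and 3 Ntrk3 sets lie above it, with SDs from 0.019 to 0.17. All 3 Ngfr sets lie below it, and the Ntrk2 set 1420837_at runs from 6.66 in sample 11 to 3.92 in sample 17.

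Among the ligands, Bdnf was detected by both of its probe sets. The set 1422168_a_at had 7.89, 8.12, 8.05 and 8.12 in samples 11, 13, 15 and 17, a mean of 8.04 ± 0.11 (SD, n = 4). Sample 11 was the lowest here, and without it the SD was 0.042. Leaving out the value farthest from the mean lowers an SD in any case. Without sample 13, 15 or 17 the SD was 0.12, 0.14 or 0.12. The set 1422169_a_at had 7.72, 7.83, 7.69 and 7.90 in the same order of samples, a mean of 7.79 ± 0.094 (SD, n = 4), with sample 15 the lowest. The suffix of both names marks sets whose probes match several transcripts of the same gene. Samples 13 and 17 were thus above samples 11 and 15 in both sets, with all values of each set within 0.24 of each other on the log2 scale.

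Vgf, the secreted neurotrophin target, had a single probe set, 1436094_at, also well above background. Its values were 9.01, 9.21, 9.27 and 9.21 in samples 11, 13, 15 and 17, with a mean of 9.17 ± 0.11 (SD, n = 4). Samples 13, 15 and 17 lay close together and sample 11 below them. Without sample 11, the farthest value, the SD was 0.035, and without sample 13, 15 or 17 it was 0.13, 0.11 or 0.13.

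Ntrk2, the receptor for brain-derived neurotrophic factor, was above background in 5 of 8 probe sets. The set with the highest mean, 1420838_at, had 9.29, 9.55, 9.51 and 9.53 in samples 11, 13, 15 and 17, a mean of 9.47 ± 0.12 (SD, n = 4). Sample 11 stood below the other 3. Without this farthest value the SD was 0.022, and without sample 13, 15 or 17 it was 0.14, 0.15 or 0.14. The other 4 sets ordered the samples in different ways. 1437560_at was highest in sample 11, with 9.12, 8.91, 8.91 and 8.70 in samples 11, 13, 15 and 17. 1458622_at was lowest in sample 11 as well and highest in sample 15, with 9.23. 1435305_at was highest in sample 15, with 9.11, and lowest in sample 17, with 8.79. 1435196_at had the same value of 9.36 in samples 11, 15 and 17 and 9.40 in sample 13. The 5 sets had SDs from 0.019 to 0.17, and they disagreed on which sample was lowest. Which of these sets read the kinase form and which the truncated form of the receptor was not determined.

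Ntrk3, the receptor for neurotrophin-3, was above background in 3 of 8 probe sets. The set 1433825_at had 8.70, 8.73, 8.85 and 8.71 in samples 11, 13, 15 and 17, a mean of 8.75 ± 0.067 (SD, n = 4), with sample 15 above the other 3. The set 1455917_at had 8.47, 8.24, 8.42 and 8.40 in the same order, with sample 13 the lowest. The set 1422329_a_at had 7.95 in samples 11 and 13, 7.84 in sample 15 and 7.66 in sample 17. The remaining 5 sets were below background, the brightest of them, 1425071_s_at, at a mean of 6.53 and the dimmest, 1447723_at, at 3.33.

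Ngfr, the p75 receptor, was below background in all 3 probe sets. Its brightest set, 1454903_at, had 4.48, 4.37, 4.55 and 4.48 in samples 11, 13, 15 and 17, a mean of 4.47 ± 0.076 (SD, n = 4). The other sets, 1450177_at and 1421241_at, had means of 3.52 and 3.51, near the median of 3.59 of the genes not expected in this tissue. No sample had an Ngfr value close to the background limit. Septal cholinergic neurons carry p75 and reach the hippocampus by projections from the basal forebrain. Their markers were below background in 6 of 6 measured genes, with means from 2.85 to 4.26, as were 11545 of all 18194 genes. Any link to the Ngfr level was not tested. Among these markers, choline acetyltransferase (Chat) had the same deposited value of 4.26 in all 4 samples. The vesicular acetylcholine transporter Slc18a3 had a mean of 3.12 and the choline transporter Slc5a7 of 3.11. Markers of meninges and mural cells, other possible sources of p75, were above background for 3 of 10 genes, or 5 with the limit at the 90th percentile, among them Dcn at 9.07 ± 0.24 (SD, n = 4), while the collagen genes Col1a1 and Col1a2 stood at 3.98 and 6.15.

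No member probe set passed a test for a spread between samples beyond what is usual at its level. The residual variance of each probe set was compared with the variance limma expects at that level, over all 9266 single-symbol probe sets above background. With limma and Benjamini-Hochberg adjustment, 0 of 9266 probe sets passed an adjusted p of 0.05, or 0% of those tested, and 287 had an unadjusted p under 0.05, or 3.1%. The set of the choroid plexus gene Ttr, with the largest SD of all genes above background by their brightest sets, also had an adjusted p of 0.892 in this limma test, so the absence of calls says little about the members. The adjusted p of the 11 member probe sets lay between 0.892 and 1, and 0 of them had an unadjusted p under 0.05. The SD of 9 of the 11 was above the median SD of 0.085 of all probe sets above background. The set with the largest SD of the 11 was 1437560_at of Ntrk2 at 0.17, which exceeded 87.2% of the probe sets above background. A p above the threshold does not show that the samples were alike.

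The probe sets of a gene were also compared with each other. A difference between samples that is common to all transcripts of a gene should appear in all of its sets. For each of 1862 genes with at least 2 probe sets above background, an F ratio set the variation that its sets shared across samples over the variation in which they disagreed, the second being moderated with limma. This test called 39 genes at an adjusted p of 0.05, or 2.09%, while 404 genes, or 21.7%, had an unadjusted p under 0.05. Sets on the same array share RNA, labelling and hybridisation, so a call says that arrays differed in a gene and not why. Bdnf, with its 2 sets, had an F of 4.69 and an adjusted p of 0.255 in this limma-based test, with an unadjusted p of 0.0639. Its mean deviation was -0.11, 0.062, -0.044 and 0.092 in samples 11, 13, 15 and 17. Ntrk2, with 5 sets, had an F of 1.36 and an adjusted p of 0.521 by the same test. Ntrk3, with 3 sets, had an F of 0.917 and an adjusted p of 0.630. The probe sets of the 2 kinases thus disagreed with each other about as much as they moved together, and none of the 3 genes was called. Sets that read different forms of a receptor may differ between samples, and the form read by each set was not determined.

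With the probe set of the highest mean, all 4 members above background were lowest in sample 11. This is a weak statement, because 48.1% of all genes above background were lowest in that sample as well. Over all 11 member probe sets above background, 5 were lowest in sample 11, close to the 45.4% of all such sets. After the columns had been quantile normalised again, 3 of the 4 members were lowest in sample 11, compared with 35.9% of all genes. The mean deviation of all genes above background was -0.051 in sample 11 and 0.032 in sample 17.

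**Figure D2:**
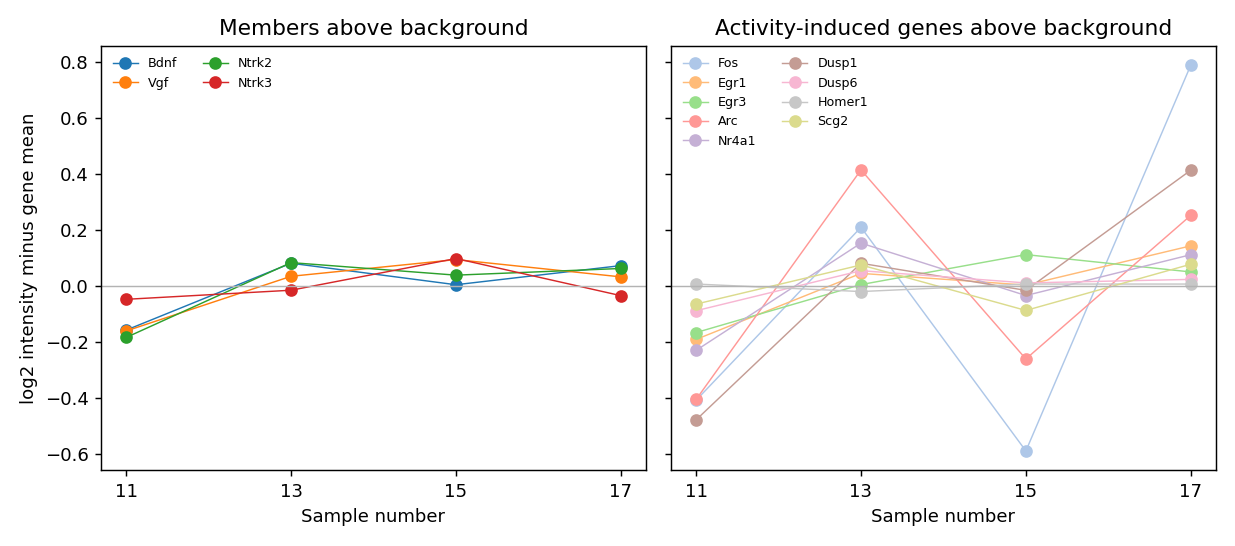
Log2 intensity minus the gene's own mean over the 4 samples (vertical axis) by sample number (horizontal axis), for the probe set with the highest mean; thin lines join the points of a gene and imply no order. Bdnf, Vgf, Ntrk2 and Ntrk3 (left) have SDs from 0.067 to 0.12. The 9 activity-induced genes above background (right) differ among themselves. Homer1 has an SD of 0.013, with the same deposited value in samples 11, 15 and 17, and Fos runs from 7.50 in sample 15 to 8.88 in sample 17.

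Some genes that neuronal activity induces had a larger SD than Bdnf in the same samples and others a smaller one. Of the 18 genes on this list, all measured, 9 were above background, compared with 36.5% of all genes. With the limit at the 90th percentile 14 were above it, compared with 49.0% of all genes. Of the 9, 0 were called by either test, 1 of them being open to the test of shared patterns. The 9 had a median SD of 0.14, against 0.082 for all genes above background, not matched for level. The SD was above that of Bdnf in 6 of the 9, compared with 30.1% of all genes above background. The SD was below that of Bdnf in Dusp6 (0.062), Homer1 (0.013) and Scg2 (0.088). Homer1 had the same deposited value of 9.22 in samples 11, 15 and 17. Fos, a transcription factor subunit, had 7.68, 8.30, 7.50 and 8.88 in samples 11, 13, 15 and 17, and Arc, a synaptic regulator, had 8.01, 8.82, 8.15 and 8.66. Samples 13 and 17 were above samples 11 and 15 for both genes, as for both Bdnf sets, but over a wider range. Of the 9 genes above background, Egr3 and Homer1 did not have this order, and neither did Vgf. The share of all genes with this order was not counted, and 48.1% of all genes above background were lowest in sample 11. The order can thus not be called particular to these genes. Egr1, a zinc finger transcription factor, had 10.50 in sample 11 and 10.84 in sample 17. Npas4, a transcription factor that binds Bdnf promoters, was below background with 4.99, 5.56, 6.27 and 6.02, and its order differed from that of Fos. Fosb and Junb, the other early members of this list, were below background at 5.36 ± 0.43 and 6.70 ± 0.26 (SD, n = 4 each). The list was written with earlier results of these samples known, so its spread is no independent evidence. Bdnf and Vgf are themselves induced by activity in neurons, and any link between these patterns was not tested.

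Some dim probe sets of the Trk genes read lower in samples 15 and 17 than in the remaining pair of samples, and others did not. The Ntrk2 set 1446712_at and the Ntrk3 set 1447723_at, both below background, read higher in samples 15 and 17. The Ntrk2 set 1420837_at, below background on average at 5.37, had 6.66, 6.13, 4.80 and 3.92 in samples 11, 13, 15 and 17. Its range of 2.74 on the log2 scale was the 10th largest of all 34958 single-symbol probe sets. The set 1420838_at, listed in the annotation under the same sequence record, stayed between 9.29 and 9.55. The difference between the 2 deposited values was 2.63, 3.42, 4.71 and 5.61 in samples 11, 13, 15 and 17. Since 1420837_at was under the limit in every sample, this describes the probe sets and is no measure of transcript levels.

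Dim Ntrk3 sets had smaller differences, again with values under the limit in every sample. The set 1425071_s_at had 6.97, 6.77, 6.24 and 6.15 in samples 11, 13, 15 and 17, and 1425070_at, listed under the same record, had 4.17, 3.87, 3.70 and 3.38. Against the brightest Ntrk3 set, 1425071_s_at was lower by 1.73, 1.96, 2.61 and 2.56 on the log2 scale. The order from sample 11 down to sample 17 was present in 3 of the 22 member probe sets, all of the Trk genes. It was present in 3.82% of all single-symbol sets, and the reverse order in 5.01%. Of the 324 single-symbol probe sets with a range over 1, 166 had the falling order.

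The array's control sets, which read a transcript near its 3' and its 5' end, also differed between these samples. The 3' minus 5' difference of Gapdh was 0.62 in both of samples 11 and 13, against 2.64 in 15 and 3.79 in 17, and that of beta-actin was 1.10, 1.25, 1.93 and 2.33. The part of the 3' minus 5' difference in these Trk values was not tested, and the position of each probe set within its transcript was not used here.

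**Figure D3:**
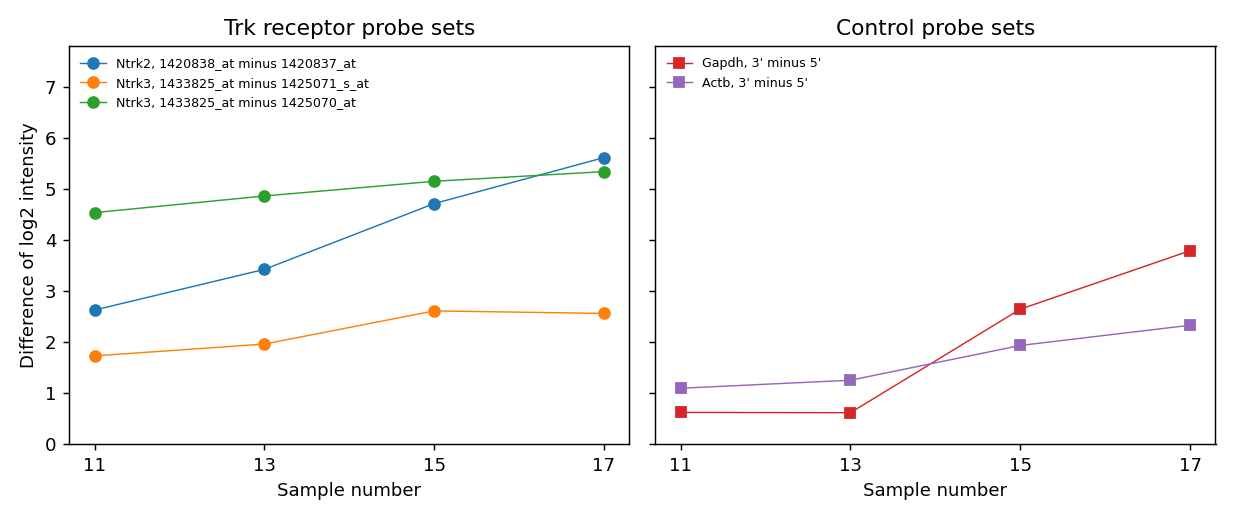
Difference of log2 intensity (vertical axis) by sample number (horizontal axis), for pairs of Ntrk2 and Ntrk3 probe sets on the left and for the 3' minus 5' control sets of Gapdh and beta-actin (Actb) on the right, 1 point per array; thin lines imply no order of the samples, and the lower Trk set of each pair is below background. The Ntrk2 difference runs from 2.63 in sample 11 to 5.61 in sample 17, and both control differences are larger in samples 15 and 17 than in samples 11 and 13.

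Of the wider family of ligands and receptors, 9 of 12 listed genes were measured and 6 were above background, compared with 36.5% of all genes. Either test called 0 of them. The sorting receptor Sort1, a partner of p75 for uncleaved neurotrophins, had 10.52, 10.52, 10.55 and 10.56 in samples 11, 13, 15 and 17, an SD of 0.020. Its relatives Sorcs2 and Sorcs3 were above background at 7.48 ± 0.053 and 7.77 ± 0.18 (SD, n = 4 each), and Sorcs1 was below it at 4.73 ± 0.066. Ntf5, the mouse gene of neurotrophin-4, was below background with 3.31 in sample 13 and the same value of 3.04 in samples 11, 15 and 17.

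**Figure D4:**
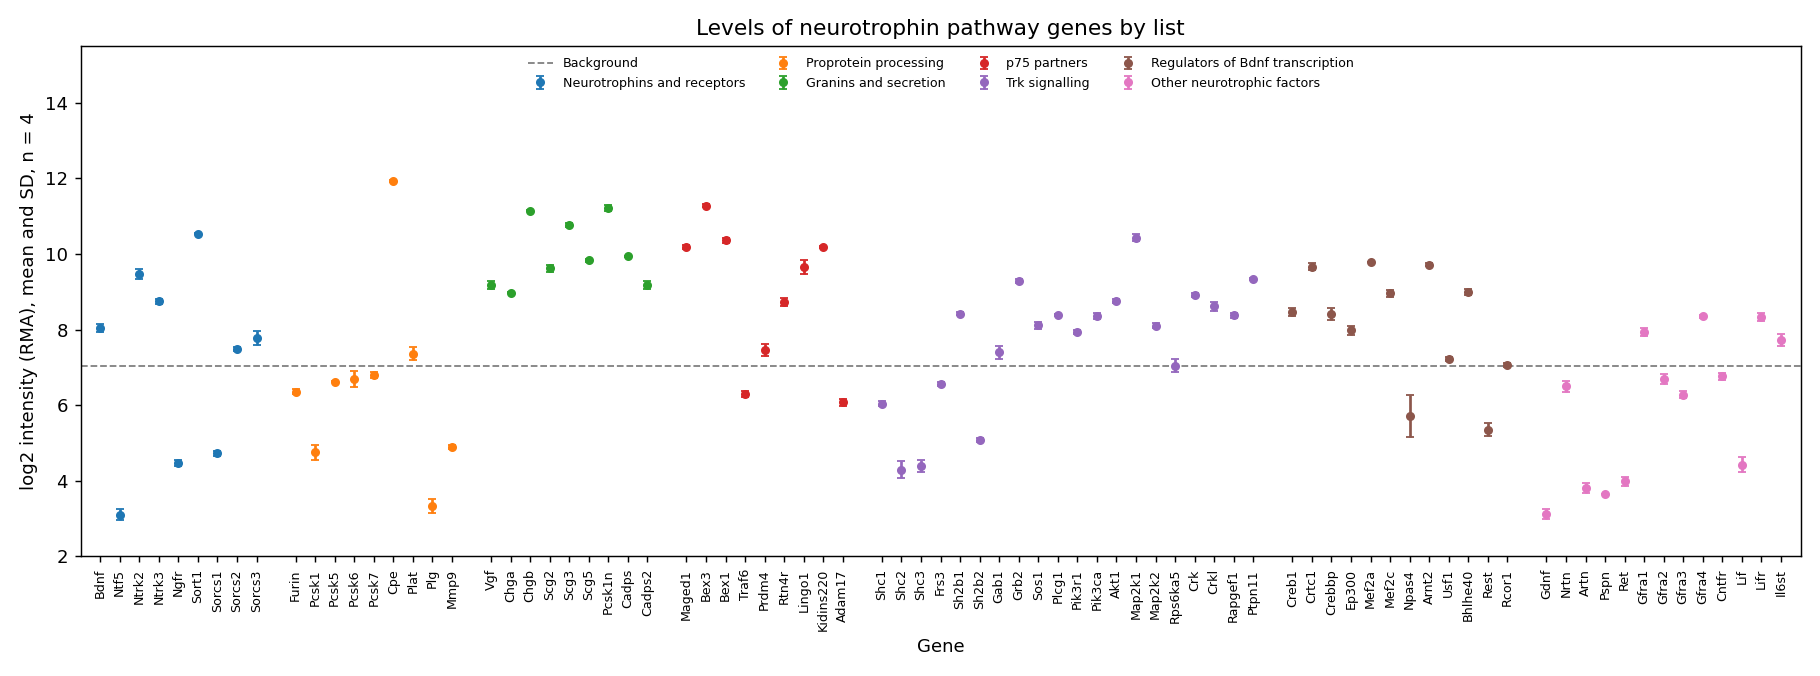
Mean log2 intensity with SD as error bars (n = 4, vertical axis) of the measured genes of 7 lists of the neurotrophin pathway (horizontal axis, colours), each by its probe set with the highest mean; the dashed line is the background of 7.03. All 9 genes of granins and secretion lie above background, and 2 of 9 of proprotein processing do, or 6 with the limit at the 90th percentile; levels of different genes are not comparable.

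The count of detected genes on the list for the processing of neurotrophin precursors depended on the limit. Of 9 measured processing genes, 2 were above background, compared with 36.5% of all genes. They were carboxypeptidase E (Cpe), which also sorts such precursors into granules, at 11.93 ± 0.028, and tissue plasminogen activator (Plat) at 7.36 ± 0.16 (SD, n = 4 each). The convertases Furin, Pcsk1 and Pcsk5 had means of 6.35, 4.75 and 6.62, and Pcsk6 and Pcsk7 of 6.69 and 6.80. With the lower limit of 6.06, the 90th percentile of the same background genes, Furin, Pcsk5, Pcsk6 and Pcsk7 were above it too, or 6 of 9 genes, compared with 49.0% of all genes. All 9 genes of granins and dense-core secretion were above background, including Vgf, the chromogranins Chga at 8.97 ± 0.012 and Chgb at 11.14 ± 0.013 (SD, n = 4 each), and Scg2 at 9.62. Their median SD was 0.051, and Vgf had the largest SD among them. No gene of either list had several sets above background and so entered the test of shared patterns, and the spread test called 0.

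Of 9 measured partners of p75, 7 were above background, compared with 36.5% of all genes, while Ngfr was not. The list was chosen with earlier results of these data known, so the count is no independent finding. Those above background included Maged1 at 10.19 ± 0.052, Bex3 at 11.28 ± 0.042 and Bex1 at 10.36 ± 0.067 (SD, n = 4 each). Maged1 and Bex3 are known to bind the receptor's intracellular part. Of 20 measured genes of Trk signalling, 15 were above background, against the same 36.5% of all genes. The adaptors Shc1, Shc2 and Shc3 were below it at 6.04, 4.29 and 4.39, whereas the adaptor Grb2 stood at 9.29 and the phospholipase Plcg1 at 8.38, chosen as examples after their values were seen. Median SDs were 0.067 for p75 partners and 0.063 for Trk signalling, both under the 0.082 of all genes above background. These medians were not matched for level, so they do not show that either list varied less than is usual at its level. In both lists 0 genes were called, where 2 and 1 were open to the test of shared patterns.

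Regulators of Bdnf transcription were above background for 10 of 12 measured genes, compared with 36.5% of all genes, and 0 were called by either test. CREB itself (Creb1) had 8.51 in samples 11 and 13, 8.30 in sample 15 and 8.53 in sample 17. Its coactivators Crtc1 and Crebbp had means of 9.66 ± 0.088 and 8.41 ± 0.17 (SD, n = 4 each). The list had a median SD of 0.087, close to that of all genes above background, without matching for level. Of 13 measured genes of other neurotrophic factors, 4 were above background, near the 36.5% of all genes. With the limit at the 90th percentile 8 were above it, compared with 49.0% of all genes, and none was open to the test of shared patterns. The ligands Gdnf, Nrtn and Artn were below the background of 7.03 at 3.12, 6.50 and 3.81.

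Markers of other cells differed between the samples, several of them being highest in sample 13. Of the members' brightest sets, those of Bdnf and Ntrk2 were highest in sample 13, Bdnf by less than 0.01 over sample 17. Those of Vgf and Ntrk3 were highest in sample 15. The other Bdnf set was highest in sample 17, and the other Ntrk2 sets above background in sample 11, 13 or 15. The share of all genes highest in sample 13 was not counted. The transport protein gene Ttr of the choroid plexus had 7.36, 9.84, 6.86 and 6.54 in samples 11, 13, 15 and 17 and was called by the limma-based test of shared patterns (adjusted p = 9.87e-05), while the other 7 of 8 choroid plexus markers, such as Kl at 5.41 and Folr1 at 3.79, were below background. Of the 7 measured myelin markers, 6 were above background and all 6 of these were highest in sample 13. Cnp, an enzyme of myelin, was called at an adjusted p of 0.0446 by the same test, and Mbp, Mog and Mag were not called or could not be tested. Gfap, the filament gene of astrocytes, which also carry truncated TrkB, had 9.98, 10.49, 10.25 and 10.44 in samples 11, 13, 15 and 17 and was called as well (adjusted p = 0.0446 in the limma-based test). The brightest Ntrk2 set was lowest in sample 11, as were 48.1% of all genes above background. The Ntrk2 set 1458622_at was lowest there as well, and 1437560_at was highest there. No set was assigned to the truncated form. Aqp4 and Slc1a2, other astrocyte genes, had means of 9.14 and 11.93, and Slc1a2 was highest in sample 11. The 8 astrocyte markers together had mean deviations of -0.055, -0.022, 0.035 and 0.042 in samples 11, 13, 15 and 17. The part of these cell types in the values of the members was not tested.

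The genes whose pattern was most like that of the 2 members with the largest SD were found by the root mean square difference between deviations from the mean over the 4 samples. For Ntrk2 these were Cyb5a at a difference of 0.0087, Polr2i at 0.0098 and Mrps21 at 0.011, among 4327 genes with an SD at least 0.5 times as large. Cyb5a, for example, had 8.50, 8.78, 8.74 and 8.75 in samples 11, 13, 15 and 17. For Vgf they were Rcan1 at 0.0028, Nxpe3 at 0.0033 and Scn3b at 0.0057, among 4698 genes. Rcan1 had 7.90, 8.09, 8.16 and 8.09, again with sample 11 the lowest. Over 4 samples such likeness is a description of these arrays.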

How the data were processed

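Total RNA of the left hippocampus was hybridised to 1 expression array per sample (4 samples, 1 group). Per the submitters' processing notes, the deposited log2 intensities were made by the authors with RMA, for which the sources used here give no version or settings. Columns hold 26526 to 29018 distinct values among 45101 probe sets, so equal values recur, and 39 of the 88 member values occur elsewhere in the table; this lowers some SDs and was not undone. Probe sets were named through the platform annotation: 34958 had 1 symbol, 932 several and 9211 none, and 34754 were found by gene identifier in the RefSeq table of GRCm38.p6. A gene was represented by its set with the highest mean.

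Spread was tested with limma 3.58.1 in R 4.3.3 (intercept, eBayes with trend and robust fit, residual over prior variance as F with 3 and 2.3 degrees of freedom). Shared patterns of a gene's sets were tested as described with squeezeVar, by number of sets. Both used Benjamini-Hochberg adjustment over the whole table at 0.05 and were tested on simulated data, in which the spread was alike for all sets not altered, unlike the deposited values. Python 3.11.15 and matplotlib 3.10.9 were used otherwise. Named genes are the members, the measured ligands and receptors, the first 3 measured genes of each other list, called genes of the lists, and the 3 most alike genes for 2 members; others are examples chosen after their values were seen, including Egr1, Arc, Npas4, Scg2, Dusp6, Homer1, Pcsk6, Pcsk7, Plat, Cpe, Grb2 and Plcg1, and the background genes. Members and 16 lists were chosen with earlier results of these data known. Of 219 listed genes 197 were measured. The labels call the samples biological replicates without naming animals. The spread p-value compares a set's variance over these samples with that usual at its level. The shared-pattern p-value compares what a gene's sets share with how they disagree. Neither measures a spread between animals. Alternatives covered the background limit, the filter, the probe set per gene, normalisation, the variance prior, a 3' minus 5' covariate and each sample left out.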

Additional observations from a re-analysis of the deposited data

Results flagged for a closer look

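A sample was taken to stand far from the other 3 if its ratio of gap to range was above Dixon's 95% critical value for 4 samples. This was found in 10 of 69 probe sets examined. These sets belong to listed genes on the same 4 arrays, and several share a gene. The share over all probe sets was not counted, so the number is no result about these genes. Equal deposited values raise this number: in 4 of the 10 the other 3 values were identical. Among the members, the ratio was 0.832 for Ntrk2 1420838_at (sample 11 lowest, 9.29), 1 for Ntrk2 1435196_at (sample 13 highest, the other 3 equal), 0.837 for Ntrk3 1443970_at (sample 11 highest at 4.07, below background) and 0.855 for Ngfr 1421241_at (sample 13 highest at 3.70, below background). Among the other genes, Creb1 had 0.884, with sample 15 lowest at 8.30. Shc2 had 0.880, with sample 17 lowest at 3.96, and Artn had 0.933, with sample 13 highest at 4.01. Furin, Ntf5 and Pcsk1 each had a ratio of 1 with 3 equal values, and Furin was lowest in sample 11 at 6.25, Ntf5 highest in sample 13 at 3.31 and Pcsk1 highest in sample 17 at 5.04. All of these but Creb1 and the Ntrk2 sets were below background.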

How the results depend on the processing

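The limma spread test gave 0 calls under all 10 alternatives (adjusted p of the member sets 0.804 to 1); as it calls no set on the array, this says nothing about the stability of the members. For Bdnf, Ntrk2 and Ntrk3 the test of shared patterns gave no call in 30 of 30 (adjusted p 0.111 to 0.779), and the lowest belonged to Bdnf once Gapdh's 3' minus 5' value entered as a covariate. Over all genes that test was less stable: 39 calls became 19 with the background at the 90th percentile, 10 without a filter on dim sets, 72 after median centring, 200 with the covariate, and 3 to 8 with 1 sample left out, when fewer degrees of freedom remain; the cause was otherwise not tested. The number of members above background was 4 under every limit, normalisation and omitted sample tried and 3 when the median of a gene's sets was used, where Ntrk3 had 5.25. With the background at the 90th percentile, an alternative chosen for the lists after seeing the data, genes above it numbered 6 in place of 2 for proprotein processing, 14 in place of 9 for activity-induced genes, 8 in place of 4 for other neurotrophic factors, 5 in place of 3 for meningeal and mural markers and 5 in place of 3 for the background genes. Without replicate 13 the choroid plexus markers above background numbered 0, within a range of 0 to 1. The range of the difference between the Ntrk2 sets was 2.98, and 0.80 without samples 15 and 17, an alternative chosen after seeing the data; for Ntrk3 it was 0.88 and 0.23. No paired analysis was possible because there is 1 group.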
